A study of Mus musculus with 72 samples.

Results

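The genes described here are 40 genes of the cell cycle, 16 that serve the copying of DNA and 24 that serve mitosis, in the colon of mice with acute colitis. They were chosen by name as standard proliferation genes, with earlier results of these data known. Each was read from the probe set of its single symbol with the highest mean over 72 arrays. Of the 40 genes 39 had such a probe set, out of 18193 genes so covered in all. Ccnb1 was not analysed here. Mybl2, a transcription factor of late cell cycle genes, had a mean log2 level of 2.20, under the filter of 2.42 for dim genes, and was not tested. This left 38 genes under test, all 16 of replication and 22 of mitosis, among 12534 genes tested in all.

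Cells that divide first license origins of replication by loading the ring-shaped MCM helicase with the help of Cdc6 and Cdt1, then copy their DNA with nucleotides made by ribonucleotide reductase. Later they raise the cyclins, kinases and motor proteins that condense and separate the chromosomes. Genes of the earlier step are known targets of E2F transcription factors, and those of the later step of the MuvB complex with B-MYB and FOXM1. In the healthy colon most divisions take place in the lower part of the crypts, from which the epithelium is renewed, and epithelial repair and immune infiltration can both change how many dividing cells the tissue holds.

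All mice were wild-type Balb/c. Naive mice (n = 8) had no colitis, and their ages, like those of the others, are not given in the sources used here. The other groups received trinitrobenzene sulfonic acid (TNBS), a hapten that provokes colitis, at 70 µg/g in equal parts of PBS and ethanol, and the colon was taken on day 4. These colitic mice were untreated (n = 8) or had been injected 1 h before TNBS with 10 mg/kg of an IgG2a directed to human CD20 as control antibody (n = 15), with TNFR-Ig, a soluble TNF receptor fusion protein, at 0.3 mg/kg (n = 12), with the anti-TWEAK antibody mP2D10 at 10 mg/kg (n = 14), or with TNFR-Ig and anti-TWEAK together at these doses (n = 15, the combination). TWEAK, like TNF itself, is a cytokine of the TNF superfamily. TNFR-Ig mice received no control antibody, so that a comparison of TNFR-Ig with the control antibody also holds the antibody. The labels name 2 experiments, 7 (34 arrays) and 10 (38 arrays), and the naive group belongs wholly to the latter. The first naive array carries a label of combination treatment beside a title and source of naive, and was kept as naive.

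Values are deposited log2 levels of whole colon RNA, 1 array per mouse, and the number of arrays limits their precision. In whole tissue, fewer cells of a type and less RNA per cell cannot be told apart. Differences are given in log2 units from limma with a term for the experiment, and called means a p under 0.05 after Benjamini-Hochberg adjustment over all 12534 genes. Levels of different genes come from different probes and are not compared with each other. The 12 epithelial markers had a mean log2 level of 13.84 to 13.93 in every group, as a colon sample should, and the 11 tested crypt stem and progenitor markers of 8.22 to 8.33. Neutrophil markers (10 tested) averaged 3.57 in naive mice, 11.13 in untreated, 10.04 in control antibody, 10.55 in TNFR-Ig, 9.77 in anti-TWEAK and 8.13 in combination mice. Among individual mice the neutrophil mean ran from 2.97 to 5.12 in the naive and from 9.10 to 12.23 in the untreated group. Macrophage markers (11 tested) averaged 8.56 in naive and 10.33 in untreated mice. Other marker lists also moved from naive to untreated mice: differentiated colonocyte markers from a range of 12.92 to 13.09 to one of 12.12 to 12.66 (10 of 12 lower, 1 higher), and in group means smooth muscle markers from 13.04 to 12.41 (10 of 10 lower), endothelial markers from 7.05 to 8.02 (9 of 10 higher) and fibroblast markers from 11.07 to 11.76 (8 of 10 higher, 1 lower). Of 8 granulocyte precursor markers 3 were tested and higher, with a mean of 2.28 and 8.75, while Mpo, Elane, Prtn3 and Ctsg lay at or near the floor. Of 7 T cell and 5 B cell markers tested 0 were called by limma, with 1 and 2 at an unadjusted p under 0.05. The part of these markers in the differences of the cell cycle genes was not tested.

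Replication genes rose in untreated colitis. Of the 16 replication genes 12 were higher than in naive mice and 0 lower, with a median difference of 0.45 over all 16 (n = 8 and 8). Over all genes tested 22.2% were called higher and 47.8% in either direction, and the median difference was -0.0085. Of the 22 mitosis genes 0 were called in either direction by limma, 0 had an unadjusted p under 0.05, and their median difference was 0.09.

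Cdc6, which loads the helicase at origins, had the largest difference. Its log2 level ran from 5.82 to 7.00 in naive mice (median 6.60) and from 6.66 to 8.23 in untreated mice (median 7.62). The groups overlapped by the lowest untreated mouse, and 7 of 8 untreated mice lay above every naive mouse. The rise was 1.07 ± 0.28 (SE, 2.10-fold, limma adjusted p = 0.00099).

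The helicase subunits followed. Mcm5 ran from 8.97 to 9.71 in naive mice (median 9.46) and from 9.56 to 10.66 in untreated mice (median 10.19), with 6 of 8 untreated mice above every naive mouse. It rose by 0.80 ± 0.21 (1.74-fold, adjusted p = 0.0011 with limma). Mcm3 ran from 8.93 to 10.15 and from 9.97 to 10.80 in the same groups, and rose by 0.77 ± 0.19 (1.71-fold). Mcm2 rose by 0.73 ± 0.18 (1.66-fold). Of the 6 helicase subunits 5 were called, and the remaining subunit, Mcm7, was at 0.31 ± 0.14 with a limma adjusted p of 0.056.

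Both subunits of ribonucleotide reductase, which makes deoxyribonucleotides, rose too. Rrm2 ran from 12.06 to 12.71 in naive mice (median 12.42) and from 12.67 to 13.22 in untreated mice (median 13.02), where 7 of 8 mice lay above every naive mouse. It rose by 0.58 ± 0.12, with the smallest limma adjusted p of the 38 genes, 5.3e-05. Rrm1 rose by 0.60 ± 0.17 (1.51-fold). Pcna, the sliding clamp of the DNA polymerases, rose less, by 0.23 ± 0.088 (1.17-fold), from 12.71 to 12.98 in naive mice to 12.83 to 13.19 in untreated mice. The origin factors Cdt1 and Gins2 and the chromatin protein Uhrf1 were the other called genes with Mcm4 and Mcm6, between 0.37 and 0.49.

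The replication genes that were not called were Mcm7, Ccne1, Cdca7 and Tyms. Ccne1, the cyclin of S phase entry, was at 0.23 ± 0.14, and Cdca7, a chromatin protein, at -0.08 ± 0.13. Tyms, the thymidylate synthase, cannot be read on this array set: 46 of 72 arrays held the identical log2 value of 3.55. Ccne1 shared 1 value on 21 arrays. Foxm1, a transcription factor of the mitosis genes, shared 1 value on 9 arrays and was low, with group means between 3.47 and 4.40.

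Among mitosis genes the smallest p-values were those of Cdk1, the kinase that drives mitosis (0.31 ± 0.16), of Bub1, a kinase of the spindle checkpoint (0.35 ± 0.20), and of Aurkb, the kinase of the chromosomal passenger complex (0.32 ± 0.19), with limma adjusted p-values of 0.10, 0.14 and 0.16. Top2a, the topoisomerase that untangles chromosomes, had a median of 11.56 in naive and 11.55 in untreated mice, a difference of 0.05 ± 0.13. Mki67, which coats mitotic chromosomes, had medians of 12.38 and 12.23, a difference of -0.04 ± 0.13. For Mki67, 2 of 8 untreated mice lay above every naive mouse and 5 of 8 below all of them. Both mice above were of experiment 7. All untreated mice of experiment 10, the only one with naive mice, lay below. The highest of these was at 12.238 and the lowest naive mouse at 12.243.

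**Figure D1:**
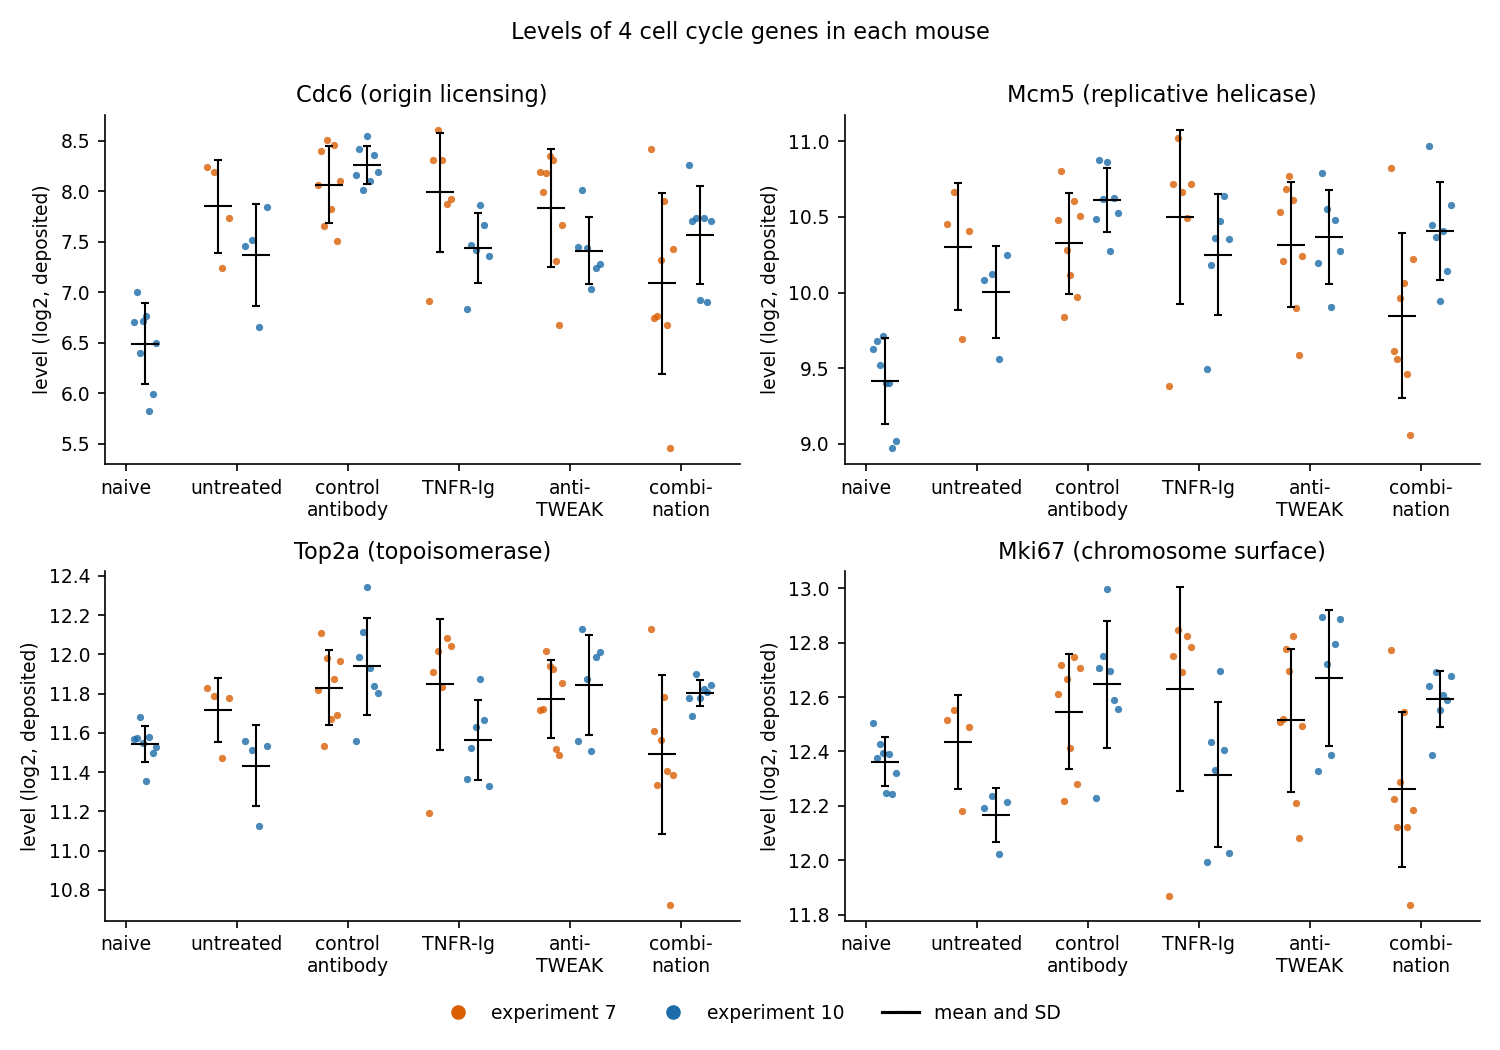
Log2 level of Cdc6, Mcm5, Top2a and Mki67 in each mouse, by group (horizontal axis) and experiment (colour), with the mean and SD of each experiment in black. In every colitic group most mice lie above the naive mice for Cdc6 and Mcm5. Of 8 untreated mice, 3 lie above and 1 below the naive range for Top2a, and 2 above and 5 below it for Mki67.

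When the 8 naive mice were set against only the 4 untreated mice of their own experiment 10, 8 replication genes were called higher (Cdc6, Mcm3, Mcm5, Rrm2, Mcm2, Mcm4, Rrm1 and Cdt1) and 0 mitosis genes by limma, where 18.6% of all genes were. There Cdc6 was at 0.88, Mcm5 at 0.59, Top2a at -0.11 and Mki67 at -0.20. For no gene of the 38 did all untreated mice lie above all naive mice, while this was so for 7.05% of all genes tested. Without the naive array of contradictory labels 13 replication genes were called.

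The mean of the 16 replication genes minus that of the 22 tested mitosis genes was taken in each mouse as a description of this split, with no test. Its zero has no meaning, since it depends on the probes, and only groups can be compared. It ran from -0.51 to -0.11 in naive mice (mean -0.30 ± 0.15, SD, n = 8) and from -0.12 to 0.15 in untreated mice (mean 0.04 ± 0.099, n = 8). Of 8 untreated mice 7 lay above the highest naive mouse. This was so for 8 of 15 control antibody, 10 of 12 TNFR-Ig, 9 of 14 anti-TWEAK and 10 of 15 combination mice. These counts pool both experiments, while naive mice are in experiment 10 alone. Within experiment 10 the medians were 0.085 in untreated, -0.030 in control antibody, 0.089 in TNFR-Ig, -0.284 in anti-TWEAK and -0.134 in combination mice. Those of anti-TWEAK and combination mice lay below the highest naive mouse, at -0.106. Anti-TWEAK mice of experiment 10 stood lower, with a mean of -0.21 ± 0.23 (n = 6), against 0.02 ± 0.078 (n = 8) in experiment 7.

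**Figure D2:**
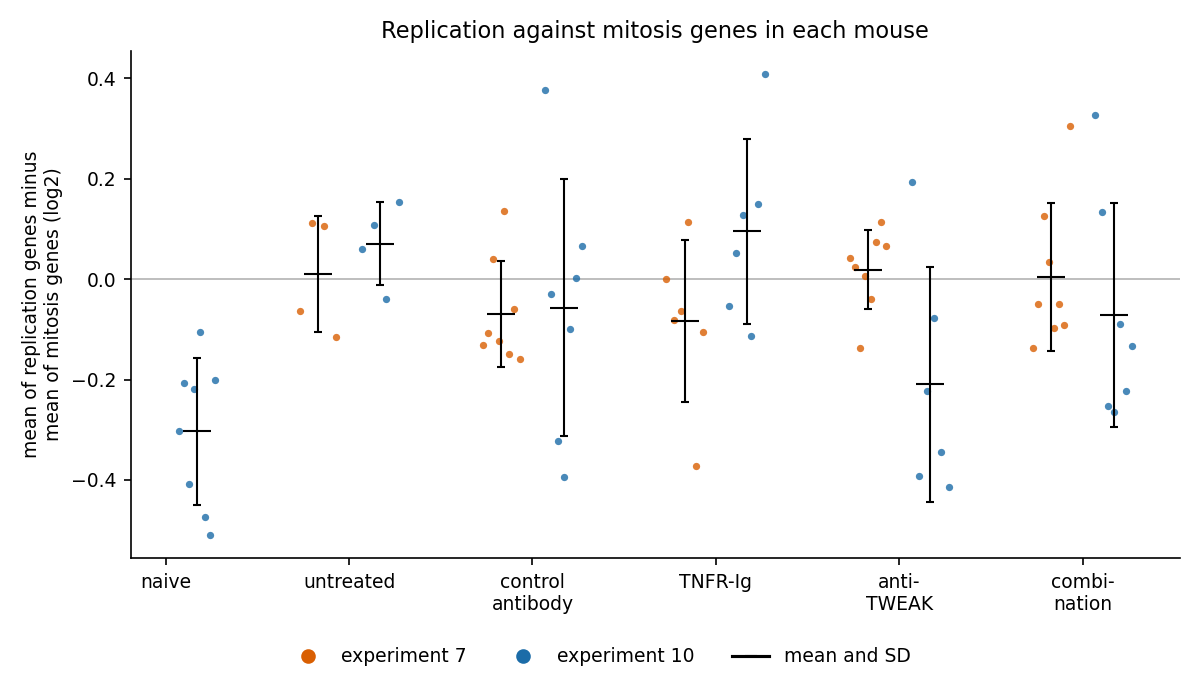
Mean log2 level of the 16 replication genes minus that of the 22 mitosis genes in each mouse, by group and experiment, with mean and SD in black. Naive mice lie between -0.51 and -0.11 and untreated mice between -0.12 and 0.15.

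The promoters of the 2 sets were set beside this split. RefSeq promoter windows of build GRCm38.p6, from 250 bases before to 50 bases after the start site, were at hand for 33 of the 40 genes (14 of replication, 19 of mitosis) in 36 promoters. Each was searched on both strands for the E2F site in its spellings TTTGGCGC and TTTCGCGC, for the cell cycle homology region (CHR) bound by MuvB in its spellings TTTGAA and TTCGAA, and for the CCAAT box of NF-Y. TTCGAA reads the same on both strands and was counted once, and matches may overlap each other. An E2F spelling was in 6 of 16 replication promoters (37.5%), 1 of 20 mitosis promoters (5%) and 0.813% of all 32851 promoters. A CHR spelling was in 2 of 16 replication promoters (12.5%), 15 of 20 mitosis promoters (75%) and 19.2% of all. CCAAT was in 11 of 16 (68.8%), 17 of 20 (85%) and 37.4%. These shares are descriptions of letters and not of bound sites.

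The promoters of 4 genes are shown for this contrast, each as the 180 bases before the start site on the gene's own strand, 5′ to 3′. Capitals mark every match of the 3 motifs. Mcm5 (chr8:75109329-75109508, + strand) and Cdc6 (chr11:98907971-98908150, + strand) are the replication genes with the largest rises. Cdk1 (chr10:69352913-69353092, - strand) and Top2a (chr11:99024190-99024369, - strand) are mitosis genes, and not typical ones. Cdk1 has the only E2F match among the mitosis promoters, and Top2a has the most CHR matches.
Mcm5: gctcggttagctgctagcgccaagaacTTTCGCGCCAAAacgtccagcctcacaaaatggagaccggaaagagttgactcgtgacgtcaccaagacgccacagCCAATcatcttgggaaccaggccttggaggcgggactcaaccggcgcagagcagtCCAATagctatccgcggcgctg
Cdc6: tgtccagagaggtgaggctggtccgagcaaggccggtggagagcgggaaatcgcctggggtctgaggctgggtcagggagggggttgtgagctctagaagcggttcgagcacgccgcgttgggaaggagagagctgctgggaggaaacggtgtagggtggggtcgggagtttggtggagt
Cdk1: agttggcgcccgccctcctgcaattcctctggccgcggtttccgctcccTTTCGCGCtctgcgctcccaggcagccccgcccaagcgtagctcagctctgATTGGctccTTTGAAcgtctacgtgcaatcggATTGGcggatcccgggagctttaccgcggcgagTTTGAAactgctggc
Top2a: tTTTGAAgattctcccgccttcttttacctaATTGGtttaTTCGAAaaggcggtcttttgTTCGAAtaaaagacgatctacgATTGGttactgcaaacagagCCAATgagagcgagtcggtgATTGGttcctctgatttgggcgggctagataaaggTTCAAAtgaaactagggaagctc
The Mcm5 stretch holds 2 overlapping E2F matches, 2 CCAAT boxes and 0 CHR matches. The Top2a stretch holds 4 CCAAT and 4 CHR matches and 0 E2F matches, and Cdk1 holds all 3 motifs. The Cdc6 stretch holds 0 matches, which says only that these spellings are not in this stretch.

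Other genes of the same processes were read from lists of 45 further replication genes (42 tested) and 67 further mitosis genes (65 tested). Of the further replication genes 21 were higher and 0 lower in untreated colitis, with a median of 0.37. E2f2, itself an E2F factor, rose by 2.00 ± 0.30 (3.99-fold), the origin recognition gene Orc1 by 0.83 ± 0.20, the exonuclease gene Exo1 by 0.79 ± 0.29 and Gins3 by 0.72 ± 0.26. Of the further mitosis genes 8 were higher and 2 lower, with a median of 0.17. Trip13, a checkpoint ATPase, rose by 0.62 ± 0.22, Anln, an actin-binding protein of cytokinesis, by 0.51 ± 0.18 and Cenph, of the kinetochore, by 0.50 ± 0.19, while Oip5, which helps to load centromeric histone, fell by 0.52 (SE 0.17). Among 31 tested genes of G1 control and arrest 8 were higher and 10 lower, shares near those of all genes, of which 22.2% were higher and 25.6% lower. Myc rose by 0.64 ± 0.12, the D cyclin gene Ccnd3 by 0.63 ± 0.10 and the stress gene Gadd45b by 0.70 ± 0.19, and the cyclin kinase inhibitor gene Cdkn2b fell by 0.87 (SE 0.15). In the same comparison all 10 neutrophil and all 11 macrophage markers rose, and their part in these differences was not tested.

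Mice given the control antibody stood above naive mice in both sets of genes. Against naive mice 32 of the 38 genes were higher and 0 lower, 15 of 16 of replication (all but Tyms) and 17 of 22 of mitosis, where 28.4% of all genes were called higher (n = 15 and 8). This comparison was added after earlier values were seen. Cdc6 was at 1.61 ± 0.24 (3.06-fold), Mcm5 at 1.11 ± 0.18 (2.15-fold), Mcm3 and Mcm2 at 1.04 each and Rrm1 at 0.86. Cdc6 ran from 7.51 to 8.54 in the 15 antibody mice (median 8.16), above the highest naive mouse at 7.00. All 15 antibody mice lay above all 8 naive mice for 8 replication genes (Cdc6, Mcm3, Mcm5, Mcm6, Rrm1, Rrm2, Gins2 and Cdt1) and 0 mitosis genes, and this was so for 6.41% of all genes.

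The mitosis genes that rose most against naive mice were Foxm1 (0.88 ± 0.30), Plk1 (0.82 ± 0.23), Aurka (0.80 ± 0.22), Bub1 (0.79 ± 0.18) and Kif23 (0.61 ± 0.15). Plk1 and Aurka are kinases of spindle assembly, and Kif23 is a motor of cytokinesis. Top2a rose by 0.35 ± 0.12 (1.28-fold), and Mki67 was at 0.25 ± 0.12 with a limma adjusted p of 0.060. Top2a ran from 11.35 to 11.68 in naive and from 11.53 to 12.34 in antibody mice, where 12 of 15 mice lay above every naive mouse. Ube2c, Kif11, Tpx2 and Ccnb2 were the other mitosis genes not called. Of the further replication genes 38 of 42 rose, and of the further mitosis genes 51 of 65 rose and 1 fell.

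**Figure D3:**
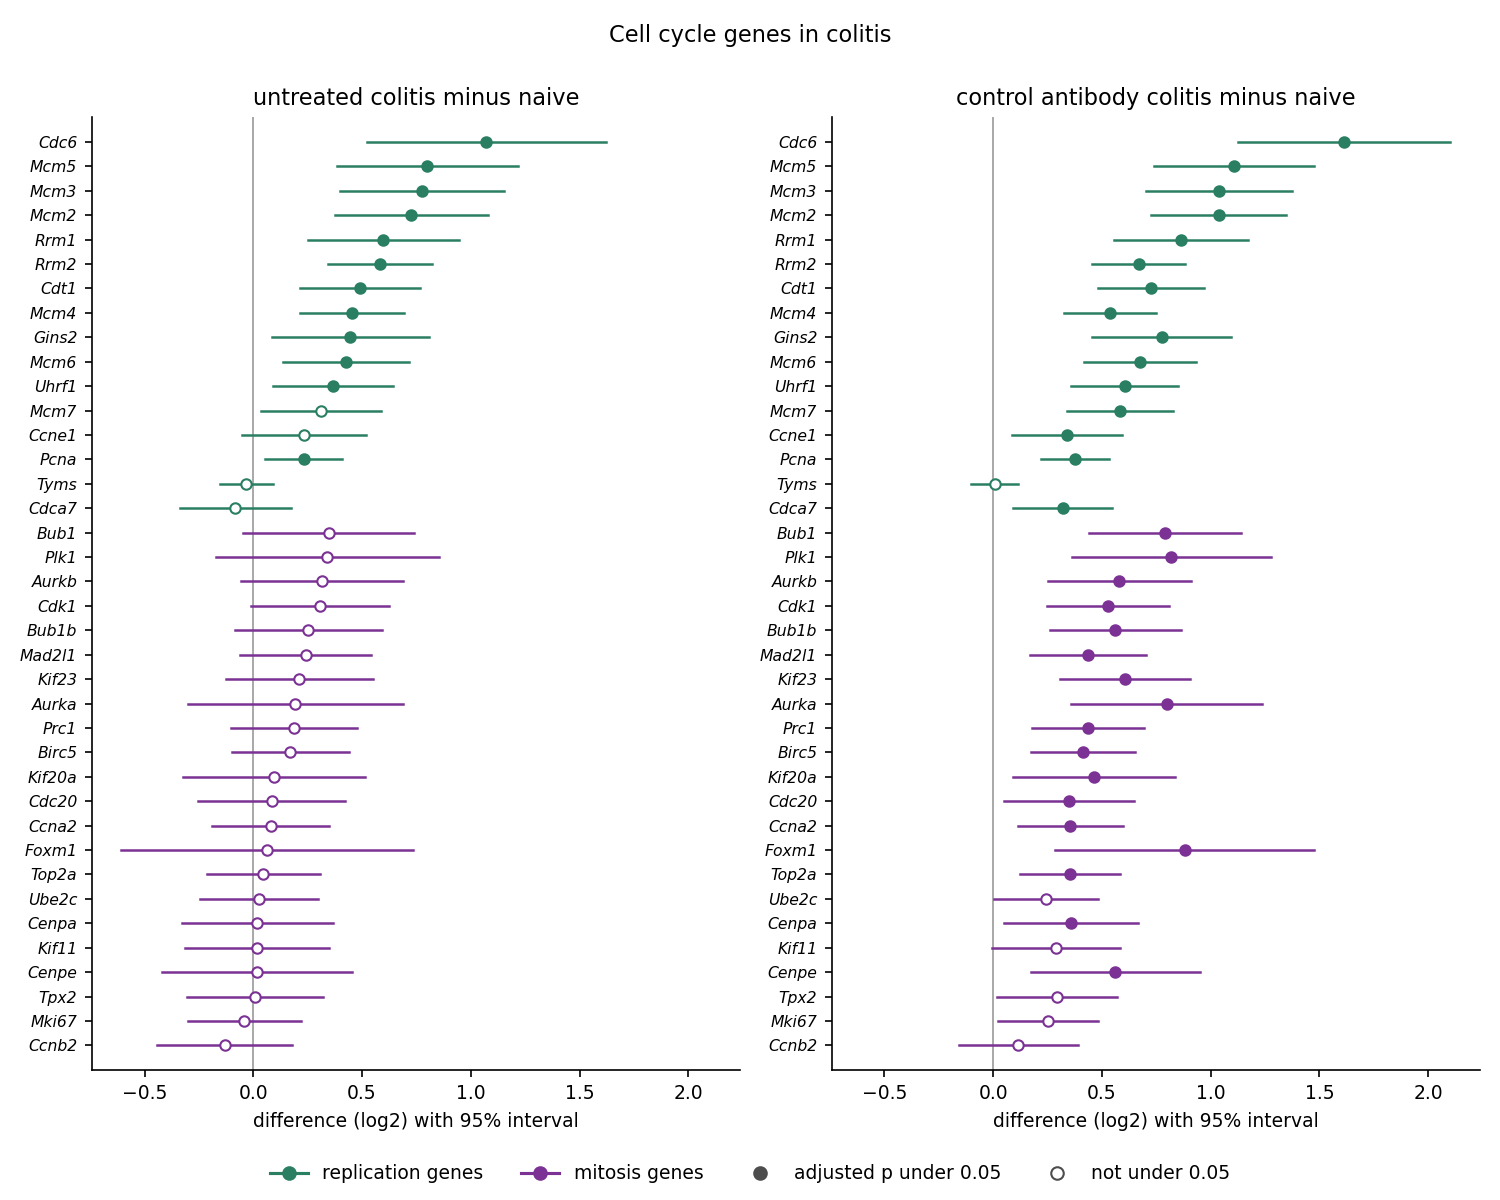
Log2 difference with 95% interval (horizontal axis) for each of the 38 genes, in untreated colitis (left) and in colitis with the control antibody (right), each against naive mice; filled points had an adjusted p under 0.05. On the left 12 replication and 0 mitosis genes are filled, on the right 15 and 17; both panels share the naive mice.

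Set against untreated colitis itself, the antibody group showed few calls over both experiments. All 38 genes were higher in antibody mice, with a median of 0.27 against 0.03 for all genes, but 2 were called, where 4.82% of all genes were called higher (n = 15 and 8). Cdca7 rose by 0.40 ± 0.11 (1.32-fold, limma adjusted p = 0.014) and Cenpe, a kinetochore motor, by 0.54 ± 0.19 (1.46-fold, adjusted p = 0.048 with limma). Aurka (0.60 ± 0.21) and Foxm1 (0.82 ± 0.29) had adjusted p-values of 0.051 and 0.052 with limma. Cdc6 was at 0.54 ± 0.23 and Mcm7 at 0.27 ± 0.12. Without the naive array of contradictory labels 1 gene was called, and without the array of lowest weight 5. Further replication genes rose in 5 of 42 cases, among them Mcm10 at 0.79 ± 0.22, and further mitosis genes in 5 of 65, among them Ndc80, a kinetochore gene, at 0.67 ± 0.22.

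Within experiment 10 alone (7 and 4 mice) 27 of the 38 genes were higher with the antibody, 11 of replication and 16 of mitosis, where 12.7% of all genes were. Foxm1 was at 1.32 ± 0.32 there, Aurka at 0.90 ± 0.23, Cdc6 at 0.89 ± 0.23, Top2a at 0.51 ± 0.12 and Mki67 at 0.48 ± 0.12. In experiment 7 alone (8 and 4 mice) 0 of the 38 genes and 0.0479% of all genes were called by limma, with Foxm1 at 0.33 ± 0.44, Aurka at 0.32 ± 0.31, Cdc6 at 0.21 ± 0.38 and Mki67 at 0.11 ± 0.16. The median of the 38 genes was 0.47 in experiment 10 and 0.078 in experiment 7. The difference between the experiments was above 0 for 37 of 38 genes, with an unadjusted p under 0.05 for 3 and 0 called by limma. Of all 12534 genes 7962 lay above 0, 1656 had an unadjusted p under 0.05 and 0.016% were called. Untreated mice of experiment 10 were low for Mki67, at 12.02 to 12.24, against 12.18 to 12.55 in experiment 7. In the comparison over both experiments 10 of 11 macrophage markers fell and 1 of 10 neutrophil markers fell, and their part in these differences was not tested.

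TNFR-Ig was compared with the control antibody to see what binding of TNF changed, though the groups also differ by the antibody. Of the 38 genes 1 was called, Cdca7, which fell by 0.33 (SE 0.096, limma adjusted p = 0.034), where 1.73% of all genes were called lower (n = 12 and 15). Cdca7 ran from 7.87 to 8.99 in TNFR-Ig mice (median 8.75) and from 8.66 to 9.27 in antibody mice (median 8.93), so that the groups overlapped over much of their range. In all, 36 of 38 genes lay below 0, with a median of -0.17. Cdc6 was at -0.44 ± 0.21, Gins2 at -0.23 ± 0.14, Ube2c, a ubiquitin-conjugating enzyme of mitotic exit, at -0.24 ± 0.10, Mki67 at -0.12 ± 0.098 and Top2a at -0.18 ± 0.098.

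Each experiment was also fitted alone. In experiment 10 (6 and 7 mice) 23 genes were lower with TNFR-Ig, 6 of replication and 17 of mitosis, against 7.2% of all genes, and the median was -0.39. Cdc6 was at -0.82 ± 0.21 there, Foxm1 at -0.81 ± 0.28, Aurka at -0.69 ± 0.20, Top2a at -0.38 ± 0.10 and Mki67 at -0.33 ± 0.10. In experiment 7 (6 and 8 mice) 0 genes of the whole table were called by limma and the median of the 38 genes was 0.046, with Cdc6 at -0.08 ± 0.33 and Top2a at 0.02 ± 0.15. All 38 differences between the experiments lay below 0, 14 with an unadjusted p under 0.05, all of them mitosis genes, and 0 were called by limma. Of all 12534 genes 5968 lay below 0, 1301 had an unadjusted p under 0.05 and 0% were called. The first TNFR-Ig mouse of experiment 7 was low, and without it 0 genes were called over both experiments.

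With untreated mice as the control, which removes the antibody from the TNFR-Ig comparison, 0 of the 38 genes and 3.01% of all genes were called by limma, the median was 0.11 and 35 of 38 genes lay above 0, Cdca7 at 0.07 among them. The neutrophil mean was 10.55 with TNFR-Ig and 10.04 with the antibody, and the macrophage mean 10.00 and 9.56, with 5 of 11 macrophage and 0 of 10 neutrophil markers called higher, and their part in these differences was not tested.

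Anti-TWEAK against the control antibody gave 0 calls by limma among the 38 genes, where 1.14% of all genes were called higher and 1.66% lower (n = 14 and 15). The median was -0.094 and 2 genes had an unadjusted p under 0.05. These were Cdc6 at -0.51 ± 0.20 (limma adjusted p = 0.15) and Cdca7 at -0.26 ± 0.093 (adjusted p = 0.12 with limma). Ccne1 was at -0.17 ± 0.10, Bub1 at -0.19 ± 0.14, Ube2c at -0.16 ± 0.098, Mki67 at -0.01 ± 0.094 and Top2a at -0.08 ± 0.094. Cdc6 ran from 6.67 to 8.35 in anti-TWEAK mice (median 7.56) and from 7.51 to 8.54 in antibody mice (median 8.16). In experiment 10 alone Cdc6 was called, at -0.85 ± 0.21, and in experiment 7 it was at -0.23 ± 0.31 and 0 genes were called by limma. Of all genes 5.69% were called lower in experiment 10 and 0% in experiment 7. With untreated mice as the control in place of the antibody, 37 of 38 genes lay above 0 and 1 below.

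Of the treatments set against the control antibody, the combination had the most calls among these genes over both experiments, though in experiment 10 alone TNFR-Ig had 23 and the combination 2. Of the 38 genes 23 were lower and 0 higher, 8 of replication and 15 of mitosis, where 17% of all genes were called lower (n = 15 and 15). All 38 lay below 0, with a median of -0.29 against -0.0025 for all genes.

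Cdc6 fell most among replication genes, by 0.84 (SE 0.20, 1.79-fold lower, limma adjusted p = 0.00099). Its level ran from 5.46 to 8.42 in combination mice (median 7.42), against 7.51 to 8.54 with the antibody (median 8.16). Of 15 combination mice 8 lay below every antibody mouse, while the others lay within the antibody range. Gins2, a subunit of the active helicase, fell by 0.47 (SE 0.13), Mcm3 by 0.40 (SE 0.13), Rrm1 by 0.38 (SE 0.12), Mcm2 by 0.33 (SE 0.12) and Pcna by 0.20 (SE 0.062). Mcm5 was at -0.35 ± 0.15 and Rrm2 at -0.19 ± 0.085, with limma adjusted p-values of 0.061 and 0.083.

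Foxm1 fell most among mitosis genes, by 0.78 (SE 0.24, 1.72-fold lower, limma adjusted p = 0.00999). It ran from 2.99 to 4.93 in combination mice (median 3.60) and from 3.14 to 5.57 in antibody mice (median 4.57), and its low level and shared values limit its precision. On its 1 further probe set above the filter the difference was -0.22 ± 0.11. Plk1 fell by 0.53 (SE 0.18), Aurka by 0.52 (SE 0.18), Bub1 by 0.42 (SE 0.14) and Kif23 by 0.35 (SE 0.12). Top2a fell by 0.24 (SE 0.092, 1.19-fold lower) and Mki67 was at -0.18 ± 0.092 with a limma adjusted p of 0.14. By role, all 4 genes of the mitotic kinase group were called lower: Aurka, Aurkb, Plk1 and Birc5, a partner of Aurkb. So were 4 of 5 genes of the spindle checkpoint and mitotic exit, and 2 of 5 of the spindle and cytokinesis.

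**Figure D4:**
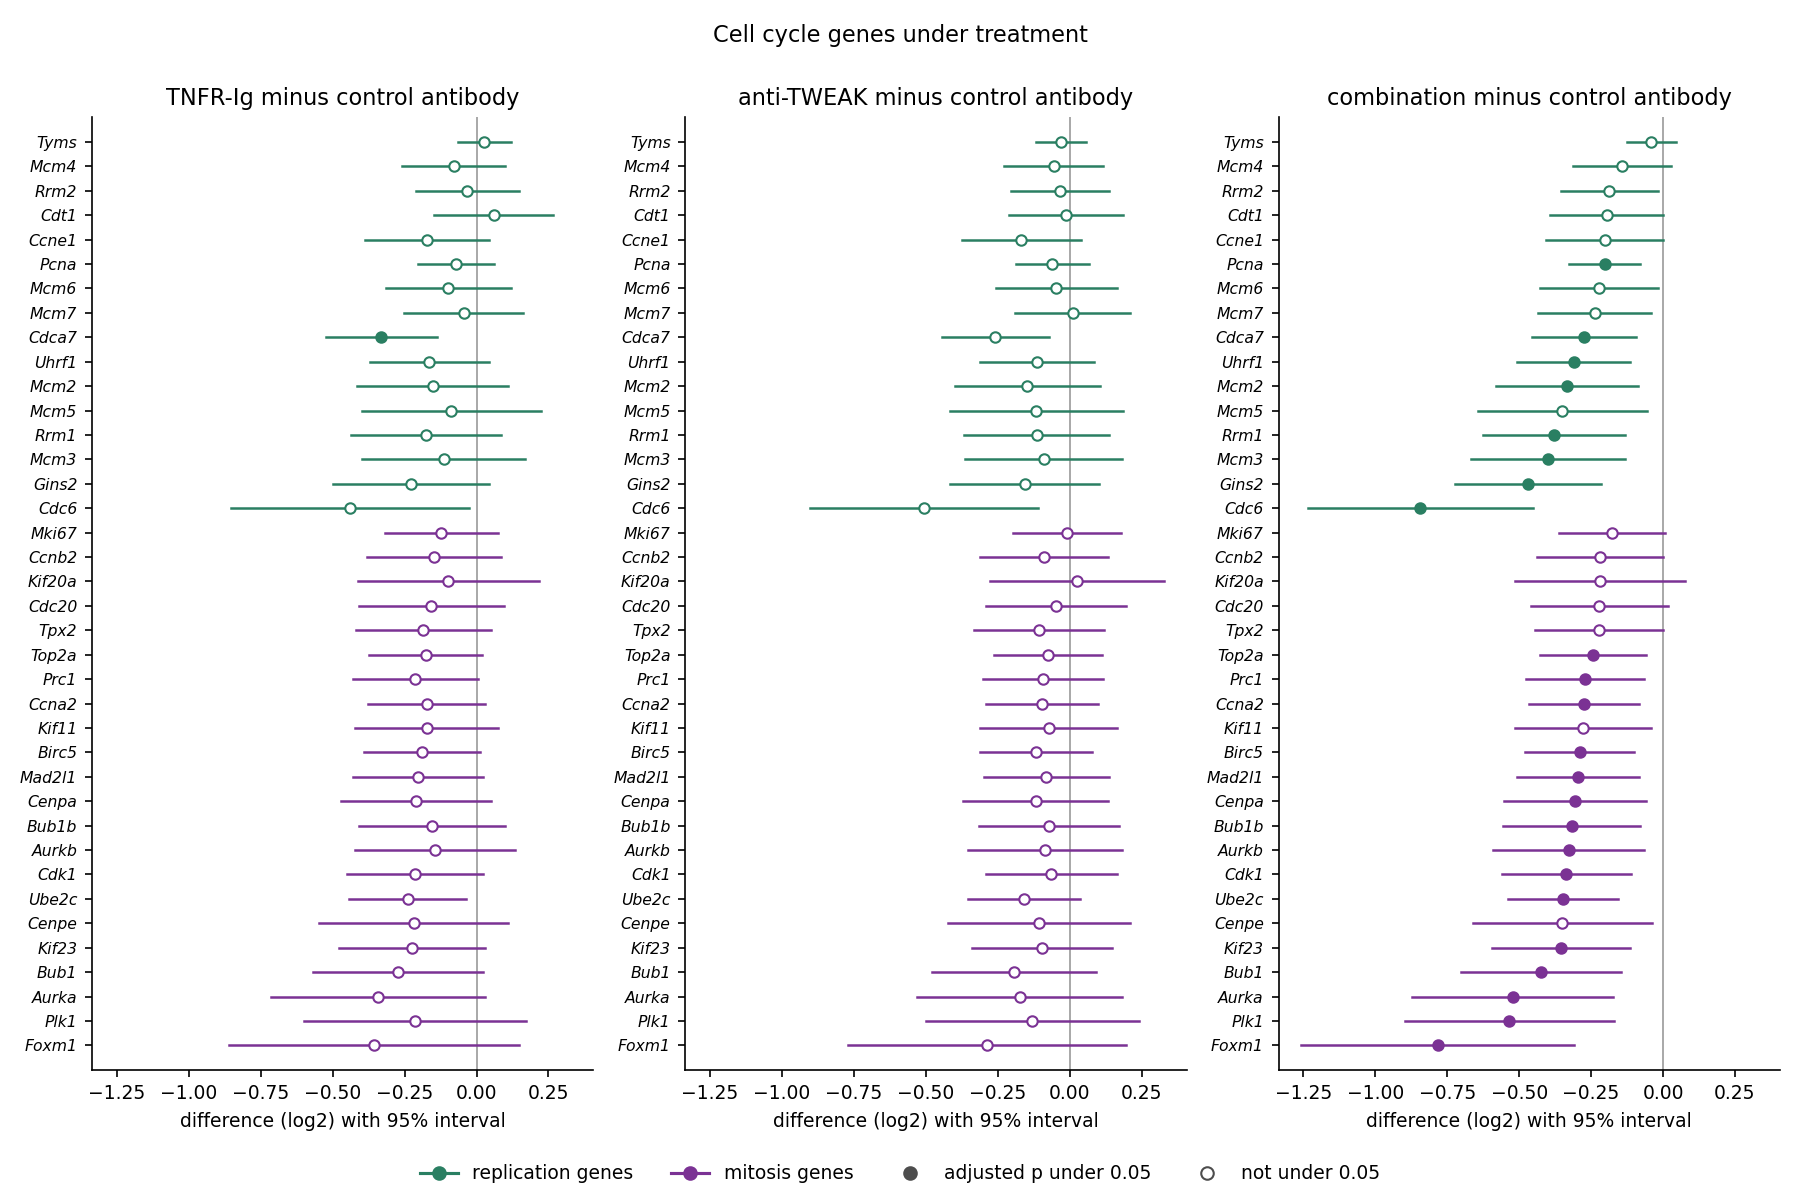
Log2 difference with 95% interval of each of the 38 genes under TNFR-Ig, anti-TWEAK and the combination, each against the control antibody, whose mice the 3 panels share; filled points had an adjusted p under 0.05. Filled points number 1, 0 and 23.

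This count depended on few mice. Combination replicates 7 and 8 of experiment 7 carry another run number in their labels, and without them 5 genes were lower, where 13.8% of all genes were. Replicate 7 alone had the lowest array weight of all (0.201), and without it 12 genes were lower, where 14.8% of all genes were. In that mouse the replication genes averaged 9.21 and the mitosis genes 9.30, the lowest of the 15 combination mice in both, and Cdc6 was at 5.46. In replicate 1 of the same experiment they averaged 10.45 and 10.59, the highest of the 15. In each experiment alone 2 genes were called lower: Cdc6 (-0.98 ± 0.31) and Kif23 in experiment 7, and Cdc6 (-0.69 ± 0.20) and Gins2 in experiment 10, where 5.47% and 7.57% of all genes were. Cdc6 was thus called in both experiments. The difference of the combination effect between experiments was called for 0 of the 38 genes by limma, with 0 at an unadjusted p under 0.05. Of all 12534 genes 0.0319% were called and 1200 had an unadjusted p under 0.05.

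Against untreated mice in place of the control antibody the same combination mice gave 0 calls by limma among the 38 genes, where 24.6% of all genes were called, a median of -0.0082, and 17 of 38 genes above 0. Cdc6 was then at -0.30 and Foxm1 at 0.03. Of the further replication genes 23 of 42 were lower against the antibody, such as E2f2, which fell by 1.02 (SE 0.21), and Exo1, which fell by 0.96 (SE 0.20). Of the further mitosis genes 33 of 65 were lower and 1 higher, and the motor gene Kif20b fell by 0.60 (SE 0.15). Of the 31 G1 genes 4 were higher and 7 lower, near the shares of all genes in this comparison, 14.2% higher and 17% lower. Among them were Ccnd3, which fell by 0.39 (SE 0.072), and the pocket protein gene Rbl2, which rose by 0.26 ± 0.060. In the same comparison 9 of 10 neutrophil markers fell, with group means of 8.13 and 10.04, and 1 of 11 macrophage markers fell, while 5 of 7 T cell and 4 of 5 B cell markers rose, and their part in these differences was not tested. The crypt stem and progenitor markers averaged 8.32 and 8.33.

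**Figure D5:**
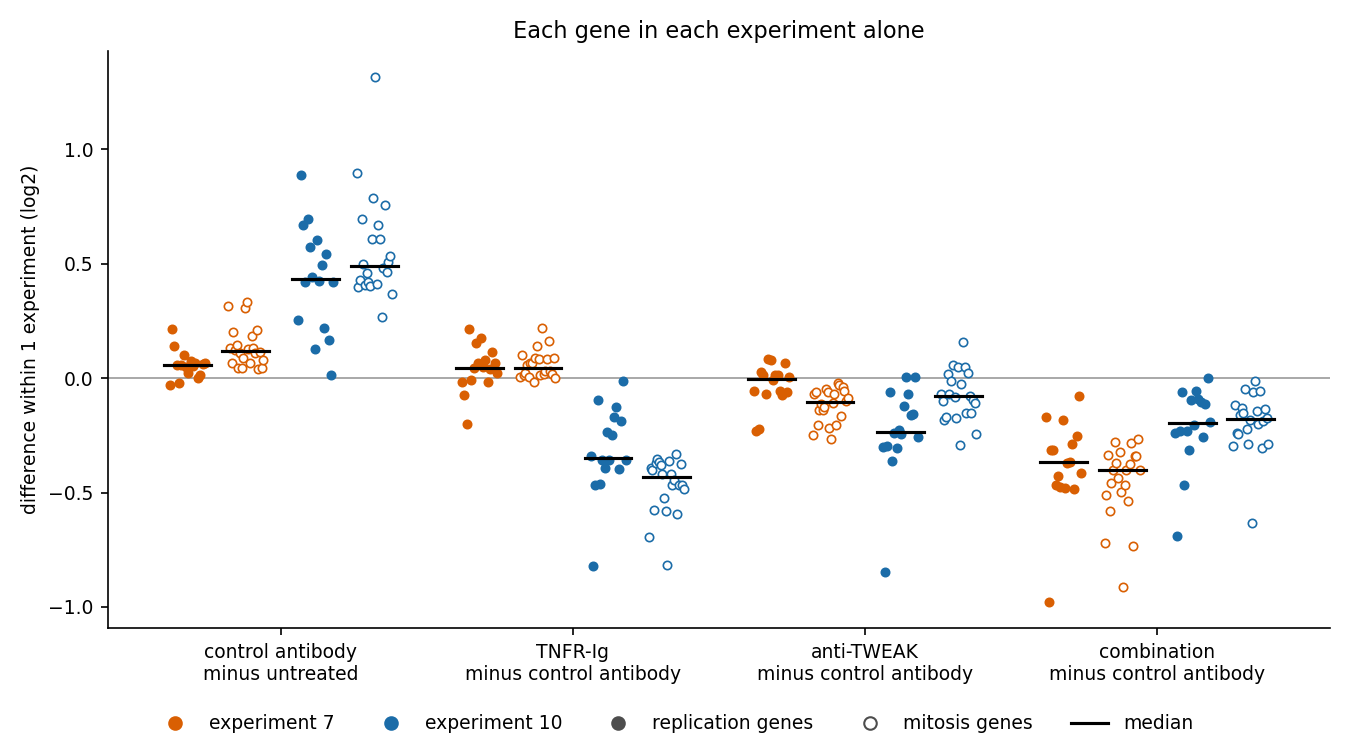
Log2 difference of each of the 38 genes (points) within experiment 7 and within experiment 10 for 4 comparisons, replication genes filled and mitosis genes open, with the median of each set as a bar. Over all 38 genes the medians of the antibody and TNFR-Ig comparisons were 0.078 and 0.046 in experiment 7, and 0.47 and -0.39 in experiment 10. The medians of the combination lie below 0 in both. For each of the 4 comparisons, the difference between experiments was called for 0 of the 38 genes by limma.

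Against the single agents the combination showed 0 calls by limma in either comparison. The median was -0.13 against TNFR-Ig and -0.19 against anti-TWEAK, with 3 and 10 of the 38 genes at an unadjusted p under 0.05. Within experiment 7 these medians were -0.44 and -0.33, and within experiment 10 they were 0.20 and -0.053. The sign of the median against TNFR-Ig thus differed between the experiments, and this difference was not tested. Of all genes 6.71% were called against TNFR-Ig and 0% against anti-TWEAK.

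Compared with naive mice, combination mice still had 10 of 16 replication genes higher and 0 of 22 mitosis genes, with 13.3% of all genes called higher (n = 15 and 8). Cdc6 was at 0.77 ± 0.24 (1.71-fold), Mcm5 at 0.76 ± 0.18 (1.69-fold), Mcm2 at 0.70 ± 0.16, Mcm3 at 0.64 ± 0.17 and Cdt1 at 0.53 ± 0.12. Within experiment 10 alone 24 genes were higher, 13 of replication and 11 of mitosis, against 20.7% of all genes. TNFR-Ig mice had 18 genes higher than naive mice (13 and 5) and anti-TWEAK mice 24 (13 and 11), where 23.5% and 22.9% of all genes were. Within experiment 10 alone TNFR-Ig mice had 13 genes higher, all of replication, and the 5 mitosis calls were lost, while anti-TWEAK mice had 30 higher (13 and 17), against 22.7% and 22.3% of all genes. All these comparisons share the 8 naive mice. Cdc6, Mcm5, Mcm3, Mcm2 and Rrm2 were among the genes called higher than naive in each of the 5 colitic groups.

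Over both experiments together, naive mice had the lowest and control antibody mice the highest mean in both sets, and these ends did not hold within each experiment. The replication mean was 9.55 ± 0.19 (SD) in naive, 9.95 ± 0.33 in combination, 10.00 ± 0.23 in untreated, 10.12 ± 0.33 in TNFR-Ig, 10.13 ± 0.22 in anti-TWEAK and 10.25 ± 0.19 in control antibody mice. The mitosis mean was 9.85 ± 0.16, 9.98 ± 0.36, 9.96 ± 0.25, 10.11 ± 0.41, 10.21 ± 0.33 and 10.31 ± 0.32 in the same order. Neighbours in this order differed by less than the SD of either group, apart from the step from naive to combination mice in the replication mean. Single mice ran from 9.64 to 10.00 for the mitosis mean in the naive group, from 9.52 to 10.67 with TNFR-Ig and from 9.30 to 10.59 with the combination. Within experiment 10, the only one with naive mice, the mitosis mean was 9.81 ± 0.11 in untreated (n = 4) and 9.85 ± 0.16 in naive mice. In experiment 7 TNFR-Ig mice had the highest means, 10.23 for replication and 10.32 for mitosis, against 10.19 and 10.26 with the control antibody.

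Between the experiments themselves, 2 of the 38 genes differed, Mcm2 (0.23 higher in experiment 10) and Ube2c, which fell by 0.16, where 44.5% of all genes were called. Further probe sets above the filter were at hand for 27 of the 38 genes. Of these 37 probe sets 33 had the sign of the main probe set in the colitis comparison and 36 in the combination comparison. The difference could be larger on a dimmer probe set: Mcm2 was 1.36 ± 0.29 higher in untreated than in naive mice on its second probe set, and Rrm1 0.96 ± 0.26. For Top2a the second probe set gave 0.43 ± 0.21 in that comparison, with a limma adjusted p of 0.087.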

How the data were processed

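RNA of 72 mouse colons was hybridised to Affymetrix arrays, 1 per mouse. The authors deposited 1 log2 value per probe set and array, with the unit read from the values. The submitters' processing notes list limma 3.4.5, R 2.11.1, GCRMA and RMA without a role, so that the method behind the deposited log2 values is unknown here. The table has a floor of 2.077, and 37.5% of values lie within 0.1 of it. Probe sets of 1 symbol were kept (34945 of 45101) with symbols updated by Entrez identifier, and each gene took its brightest probe set. Genes with a mean below the 40th percentile (2.42) were left out. Groups and the experiment entered 1 limma fit (limma 3.58.1, R 4.3.3, two-sided, with calls at 0.05 after Benjamini-Hochberg adjustment over all genes tested), tested on simulated data. Differences between experiments were tested as interactions for the control antibody against untreated mice and for each treatment against the control antibody.

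The genes and lists were chosen with earlier results of these data known. Named are, in each set, up to 5 called rises and 5 called falls by size, or where fewer than 3 genes are called the 3 smallest p-values, with Pcna, Mcm5, Rrm2, Mki67 and Top2a, and up to 4 called genes of other lists. Any gene beyond this was chosen after its values were seen. Replicate numbers in the labels were not taken to pair mice. Same-numbered mice had mean correlations of -0.022 in experiment 7 and 0.0068 in experiment 10, and other-numbered mice of 0.0029 and -0.00097. Such means cannot exclude a pairing, and the closing section gives counts with a replicate block.  Alternatives are listed in the closing section. Figures used matplotlib 3.10.9 under Python 3.11.15.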

Additional observations from a re-analysis of the deposited data

Results flagged for a closer look

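In 84 checks of a single array against the rest of its group and experiment (Dixon's criterion, which chance meets in about 1 of 20 groups), 6 values stood apart, all of them low. The first TNFR-Ig mouse of experiment 7 gave 4 of them. Its replication mean was 9.525 against 10.23 to 10.61 in the other 5 mice, Mcm5 was at 9.383 against 10.49 to 11.02, Mki67 at 11.87 against 12.69 to 12.85, and Top2a at 11.19 against 11.83 to 12.08. The array weight of this mouse was 0.386. The others were Top2a in the third untreated mouse of each experiment, at 11.47 against 11.78 to 11.83 in experiment 7 and at 11.12 against 11.51 to 11.56 in experiment 10.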

How the results depend on the processing

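Over the comparisons and their alternatives, 169 of 202 counts of called genes stayed within 1.5 times, 20 were lower and 13 higher. The 169 include counts that were 0 in the main fit and stayed at 0, which says little about stability. The rise of replication genes in untreated colitis had 8 to 14 calls under every alternative, with 1 mitosis gene lower when these groups were fitted alone. Antibody against untreated (2 calls) gave 1 with no filter, every probe set, no experiment term, the Actb covariate or without the array of contradictory labels, 0 in experiment 7, 27 in experiment 10, 6 with array weights or without the arrays of the other run, and 5 without the array of lowest weight. TNFR-Ig (1 call) gave 23 in experiment 10 and 0 with no filter, the replicate block, experiment 7, the compared groups alone, untreated controls or without its first array of experiment 7. Anti-TWEAK (0 calls) gave 1 in experiment 10 or with the compared groups alone and 2 with array weights. The combination (23 calls) gave 2 in each experiment alone, 5 without the arrays of the other run, 12 without the array of lowest weight and 0 with untreated controls. It gave 1 call against TNFR-Ig with array weights, and against naive mice (10 calls) 24 in experiment 10, 17 with array weights and 18 with the compared groups alone. Between experiments (2 calls) there were 1 with no filter or the compared groups alone, 0 with the Actb covariate and 5 with the mean of all probe sets. The replicate block gave 9 calls in untreated colitis and 21 for the combination, and moved no count but that of TNFR-Ig by over 1.5 times. With untreated controls Cdca7 (TNFR-Ig) turned to 0.071, and under the combination Foxm1 turned to 0.0341, Aurka to 0.0818, Bub1 to 0.0204, Kif23 to 0.0420 and Top2a to 0.0633. Ccnd3 turned to -0.16 between experiments with the mean of all probe sets. The cause of these changes was not tested. Each experiment alone holds fewer mice, and gave fewer calls in some comparisons and more in others. The Actb covariate, the array of lowest weight, the first TNFR-Ig array and the comparisons of antibody, TNFR-Ig and anti-TWEAK with naive mice were later additions, chosen after seeing the data.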
